A study of Mus musculus with 391 samples.

Results

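The 9 genes described here are 7 CC chemokines (Ccl2, Ccl3, Ccl4, Ccl6, Ccl7, Ccl9 and Ccl12) and 2 of their receptors (Ccr1 and Ccr2). The 9 genes, and the lists of other genes below, were chosen by name with earlier results of these data known. Each of the 9 was found once among the 56941 genes of the deposited count table. The cells came from vessel-rich fragments of the brains of adult mice, and single wells were read by Smart-seq2, a protocol that covers whole transcripts and carries no molecular identifiers. By their labels 280 cells are microglia, the macrophages that live in brain tissue, and 111 are endothelial, the lining of blood vessels. They are called the microglia class and the endothelial class here, and the deposited cell table codes them MG and CP-EC. Endothelial values here are of CP-EC cells only. The labels give neither strain, genotype, sex nor any treatment, and both classes come from the same kind of dissociated preparation. No animal is named for any cell. Each class therefore counted as 1 sample, so values were set side by side by size, and intervals cover counting error only.

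CC chemokines are small secreted proteins with adjacent cysteines that draw leukocytes along a gradient. They bind G protein-coupled receptors that signal through inhibitory G proteins, and one receptor usually answers several ligands. In the brain, macrophages and microglia are a known source of them, and Ccr2 is best known as the receptor by which monocytes leave the bone marrow and enter inflamed tissue. In mice Ccl2, Ccl7 and Ccl12 act on Ccr2, and Ccl3, Ccl6 and Ccl9 act on Ccr1.

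The microglia class held 47508014 gene reads and the endothelial class 21361227, with medians of 146506 and 174345 reads per cell. The endothelial label fitted its markers, since at least 50% of those cells had reads of each of the 10 endothelial markers. The microglia class was mixed, and the labelled type stood out in 1 of its clusters. Its cells fell into 3 clusters when grouped by 2000 variable genes, after all 68 chemokine and chemokine receptor genes had been taken out, so that none of the 9 genes shaped a cluster. Cluster 1, of 186 cells, was border-macrophage-like, led by Cbr2, F13a1 and Pf4, with border macrophage markers that summed to 8551 CPM, reads of a gene per 1000000 gene reads, against 156 CPM in cluster 2. Cluster 2, of 56 cells, was microglia-like, where each of 10 microglia markers was found in 50% or more of the cells and their sum was 23962 CPM, against 3639 CPM in cluster 1 and 815 CPM in cluster 3. Cluster 3, of 38 cells, was left unnamed. Its leading genes were Napsa, Tnip3 and Dpp4, its MHC class II markers summed to 27928 CPM, and 3 of 8 dendritic cell markers were found in 50% or more of its cells. Of 8 monocyte markers Chil3, Vcan, F10 and Cd177 were at 0 reads in it, while Plac8 stood at 105 CPM. The list summed to 1106 CPM in cluster 3, 179 CPM in cluster 1 and 7.62 CPM in cluster 2. Most of each sum was Ccr2, one of the 9 genes, at 1001, 179 and 5.85 CPM. These sums therefore mainly restate the level of Ccr2 and do not name a cell type. Endothelial markers summed to 115, 501 and 95.2 CPM in clusters 1, 2 and 3, and to 30264 CPM in the endothelial class. No doublet caller was run, and the part of mixed wells in the values below was not tested.

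All 9 genes stood far higher in the microglia class than in the endothelial class. The difference was at least 4-fold for 9 of 9, where it was for 19.9% of the 14989 genes at 1 CPM or more in either class. Since the 9 were chosen with earlier results known, shares of all genes are given for scale and are not a test. The median log2 ratio of the 9, with a pseudocount of 1 CPM, was 8.10, against 0.36 for all those genes, and 8.05 with the gene at 0 reads set to a floor of 3 reads. The start of each cell name was taken as its plate, which no label states, and both classes shared plates A and B. Within plate A, with 133 microglia-class and 7 endothelial cells, 9 of 9 passed 4-fold again, where 46.5% of all genes did, with a median of 8.41. Within plate B, with 147 microglia-class and 10 endothelial cells, so did 9 of 9, where 48.4% of all genes did, with a median of 7.37. In these class sums fewer expressing cells and less RNA per cell cannot be told apart, so the values per cell are given beside them.

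**Figure D1:**
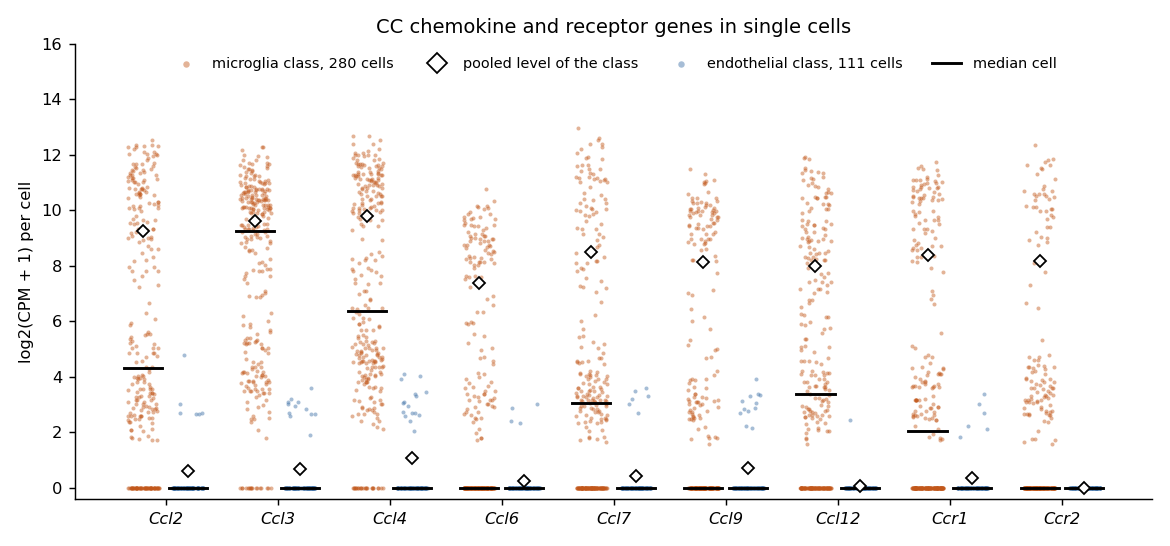
Level of each of the 9 genes in single cells, as log2(CPM + 1), for 280 microglia-class cells (left of each pair) and 111 endothelial-class cells (right). Black lines mark the median cell and diamonds the pooled level of the class. Microglia-class cells split into a low and a high band for every gene, and no endothelial cell reached the high band.

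Ccl2, a chemoattractant of monocytes, averaged 607 CPM (95% exact Poisson interval 600 to 614) over the microglia class and 0.515 CPM (0.257 to 0.921) over the endothelial class. Single microglia-class cells ran from 0 to 5915 CPM with a median of 18.8 CPM, and endothelial cells from 0 to 26.9 CPM with a median of 0. Its log2 ratio was 8.65. Ccl2 thus varied widely within the microglia class: 117 of 280 cells (41.8%, exact Clopper-Pearson interval 35.9 to 47.8) carried 10 or more reads of it, and the upper quartile lay at 1079 CPM.

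Ccl7, which acts on Ccr1 and Ccr3 as well as Ccr2, stood at 365 CPM (359 to 370) in the microglia class and 0.328 CPM (0.132 to 0.675) in the endothelial class, a log2 ratio of 8.10. Microglia-class cells ranged up to 7996 CPM around a median of 7.42 CPM, and 74 of 280 carried 10 or more reads. The highest endothelial cell had 11.0 CPM. Ccl12, a mouse ligand of Ccr2, stood at 257 CPM (252 to 261) in the microglia class, where 97 cells carried 10 or more reads and the highest reached 3933 CPM. The endothelial class held 1 read of it, and its log2 ratio with the pseudocount was 7.94. Without the pseudocount the ratio of the classes was 5482, which rests on that 1 read, with a counting interval of 984 to 216560.

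The largest levels per length belonged to Ccl4 and Ccl3, chemokines of macrophages that attract monocytes and T cells. On the scale of reads per kilobase of exon and per 1000000 gene reads (RPKM), with exon lengths from GENCODE M21, the microglia class had 1360 for Ccl4, 1025 for Ccl3, 533 for Ccl2, 478 for Ccl12 and 455 for Ccl7. Ccr1 followed at 119, Ccl9 at 92.8, Ccl6 at 92.3 and Ccr2 at 42.9. Ccl9 and Ccl6 were not separable by counting error, with intervals of 91.2 to 94.3 and 90.2 to 94.3 RPKM. The annotation merges the exons of all transcripts of a gene and is of an older build than the reads, so a long unused exon would lower a value.

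Ccl3 was the most evenly spread of the 9. Microglia-class cells ran from 0 to 5005 CPM with a median of 611 CPM, 182 of 280 (65.0%, 59.1 to 70.6) carried 10 or more reads, and the 28 cells with most of it held 21.9% of its reads. For the 2170 genes at 100 CPM or more in the class that share had a median of 66.0%, and the other 8 genes ran from 30.5% for Ccl4 to 85.4% for Ccr2. The class level of Ccl3 was 785 CPM (777 to 793) in the microglia class and 0.609 CPM (0.324 to 1.04) in the endothelial class, a log2 ratio of 8.93. Ccl4 stood at 898 CPM (889 to 906) in the microglia class and 1.12 CPM (0.720 to 1.67) in the endothelial class, a log2 ratio of 8.73. Its median microglia-class cell had 82.7 CPM and its highest 6545 CPM, and 142 of 280 cells carried 10 or more reads.

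Ccl6 and Ccl9, ligands of Ccr1 described in mice, were read in fewer cells. Ccl6 stood at 166 CPM (162 to 169) in the microglia class and 0.187 CPM (0.0510 to 0.479) in the endothelial class, a log2 ratio of 7.13. Ccl9 stood at 283 CPM (278 to 287) in the microglia class and 0.655 CPM (0.358 to 1.10) in the endothelial class, a log2 ratio of 7.42. The median microglia-class cell had 0 CPM of either gene, the highest had 1740 CPM of Ccl6 and 2908 CPM of Ccl9, and 79 of 280 cells carried 10 or more reads of each. These 2 genes lie next to each other among the CC chemokine genes of chromosome 11, and their start regions are alike. Over windows of 250 bases before to 50 bases after the start, their best local alignment matched 58 of 67 bases (86.6%), from positions -18 to 48 of Ccl9 and -59 to 14 of Ccl6. Ccl6 bases of that stretch without a partner in Ccl9 are not counted in the 67. The alignment scored 38, and the next best of the pairs among the 6 genes with a window scored 12. The upstream parts of both windows are shown because of that likeness, which was looked for after the levels were seen. Most of the aligned Ccl9 stretch lies after the start, so the upstream parts show only some of the likeness. Sequences are from RefSeq (GRCm38.p6, an older build than that of the reads), 5′ to 3′ on the minus strand, chr11:83578637-83578886 for Ccl9 and chr11:83593088-83593337 for Ccl6, and capitals mark the upstream bases within the alignment.
Ccl9: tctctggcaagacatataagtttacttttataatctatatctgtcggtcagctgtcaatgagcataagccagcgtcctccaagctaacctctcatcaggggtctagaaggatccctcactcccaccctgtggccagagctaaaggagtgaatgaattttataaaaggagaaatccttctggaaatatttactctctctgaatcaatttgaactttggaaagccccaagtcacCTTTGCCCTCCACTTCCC
Ccl6: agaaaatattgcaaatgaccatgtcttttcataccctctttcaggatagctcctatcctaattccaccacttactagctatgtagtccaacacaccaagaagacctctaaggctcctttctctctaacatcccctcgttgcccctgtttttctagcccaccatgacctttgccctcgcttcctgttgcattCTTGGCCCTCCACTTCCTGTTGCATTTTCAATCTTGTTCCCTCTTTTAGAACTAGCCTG
Neither the AP-1 motif TGACTCA (with its reverse complement TGAGTCA) nor 3 versions of the NF-kB motif was found on either strand in the windows of Ccl3, Ccl6, Ccl9, Ccl12, Ccr1 and Ccr2. Of all 32851 promoter windows 5.20% hold the AP-1 motif, and 0.155%, 0.0883% and 0.0396% hold the NF-kB versions.

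The receptors were read in fewer cells than Ccl2, Ccl3, Ccl4 and Ccl12 at 10 or more reads. Ccr1 stood at 338 CPM (333 to 344) in the microglia class and 0.281 CPM (0.103 to 0.611) in the endothelial class, a log2 ratio of 8.05. Its median microglia-class cell had 3.13 CPM and its highest 3469 CPM, and 76 of 280 cells carried 10 or more reads. Ccr2 was the sparsest of the 9, with 45 of 280 microglia-class cells (16.1%, 12.0 to 20.9) at 10 or more reads, a median of 0 CPM and a highest cell of 5287 CPM. It stood at 290 CPM (285 to 295) in the microglia class and had 0 reads in all 111 endothelial cells. Its log2 ratio with the pseudocount was 8.185. Against a floor of 3 reads over the endothelial class, and without the pseudocount, the ratio of the classes was 2064. The counting interval of that ratio at 0 reads had a lower limit of 1679.

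Endothelial cells held only stray reads of the 9 genes. For every gene 0 of 111 endothelial cells carried 10 or more reads (Clopper-Pearson interval up to 3.27%). The most reads of any of the 9 genes in 1 endothelial cell was 5. With a threshold of 1 read, 16 endothelial cells (14.4%) had Ccl4, 12 each had Ccl3 and Ccl9, 6 each had Ccl2, Ccl7 and Ccr1, 4 had Ccl6, 1 had Ccl12 and 0 had Ccr2. In the microglia class the cells with 1 or more reads numbered 256 for Ccl4, 263 for Ccl3, 133 for Ccl9 and 117 for Ccr2. Cells of the microglia class with only 1 to 9 reads numbered from 50 for Ccl6 to 114 for Ccl4. The 17 endothelial cells on plates A and B, which also hold all microglia-class cells, summed to 11.0 CPM (7.64 to 15.4) over the 9 genes. The 94 endothelial cells on plates C and D, which hold no microglia-class cell, summed to 2.52 CPM (1.84 to 3.36). Where the 1 to 9 reads of a cell come from was not tested, and calls per cell below use 10 or more reads.

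Cells of the microglia class usually carried several ligand genes at once. At 10 or more reads the median cell carried 3 of the 7 ligand genes, 265 of 280 cells (94.6%, 91.3 to 97.0) carried at least 1, and 227 carried at least 2. One cell carried all 7, and none of the 111 endothelial cells carried any. Over the 2170 genes at 100 CPM or more in the microglia class, the median gene had 10 or more reads in 25.4% of cells. The ligand genes ran from 26.4% of cells for Ccl7 to 65.0% for Ccl3. Whether cells carry more of the ligand genes than of other genes of like level was not tested. On plate A 129 of 133 microglia-class cells carried a ligand gene and on plate B 136 of 147. The median number was 3 in each cluster, and 38 of 38 cells of cluster 3, 55 of 56 of cluster 2 and 172 of 186 of cluster 1 carried at least 1. Median depth was 126871 reads per cell in cluster 1, 197265 in cluster 2 and 202429 in cluster 3, and its part in these counts was not tested.

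**Figure D2:**
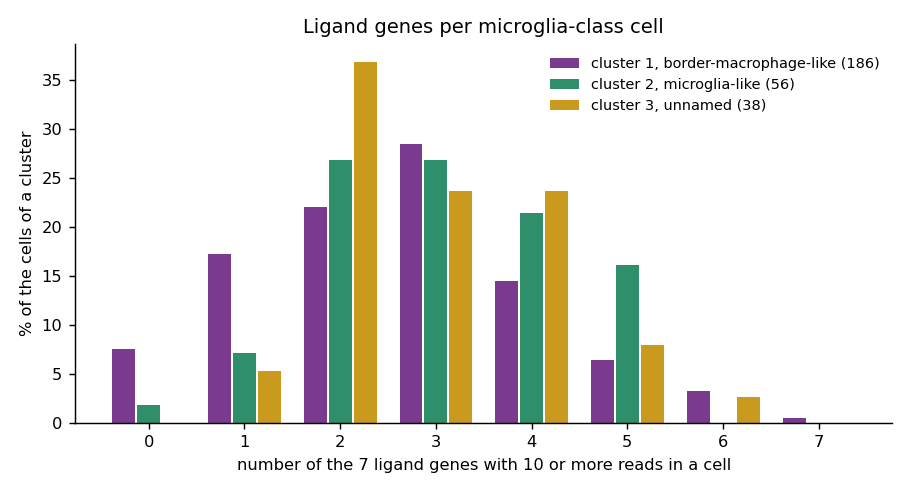
Number of the 7 ligand genes with 10 or more reads in a cell (horizontal axis) against the percent of the cells of a cluster (vertical axis), for the 3 clusters of the microglia class. Most cells of each cluster carry 2 to 4 ligand genes, and the cells with 0 are 14 of cluster 1 and 1 of cluster 2.

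Which ligands a cell carried differed between the clusters. In the microglia-like cluster 2 Ccl4 stood at 1707 CPM, against 646 CPM in the other microglia-class cells, and 49 of 56 cells (87.5%, 75.9 to 94.8) carried 10 or more reads. Ccl3 stood at 1000 CPM in cluster 2, against 718 CPM in the other cells. Divided by exon length, Ccl4 was the highest ligand in 39 of the 55 cluster 2 cells that carried one, and Ccl3 in 11. In cluster 1 no ligand dominated: Ccl3 was highest in 47 of 172 cells, Ccl4 in 34, Ccl2 in 31, Ccl12 in 29 and Ccl7 in 24.

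Ccl7, Ccr1 and Ccr2 were the genes at least 4-fold lower in cluster 2 than in the other microglia-class cells, 3 of the 9, where 16.8% of 14299 genes were, and 0 of the 9 were at least 4-fold higher (6.89% of genes). Ccl7 stood at 12.2 CPM in cluster 2, against 474 CPM in the other cells, and 2 of 56 cells carried 10 or more reads. Ccr1 stood at 19.2 CPM in cluster 2, against 438 CPM in the other cells, and 2 of 56 cells carried 10 or more reads. Ccr2 stood at 5.85 CPM in cluster 2, against 378 CPM in the other cells, and 1 of 56 cells carried 10 or more reads. Ccl12, the third Ccr2 ligand, did not share that pattern, at 254 CPM in cluster 2 and 257 CPM in the other cells. Ccl2 was intermediate, at 233 CPM in cluster 2 and 723 CPM in the other cells. The 3 genes past 4-fold were past it within plate A and within plate B too.

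**Figure D3:**
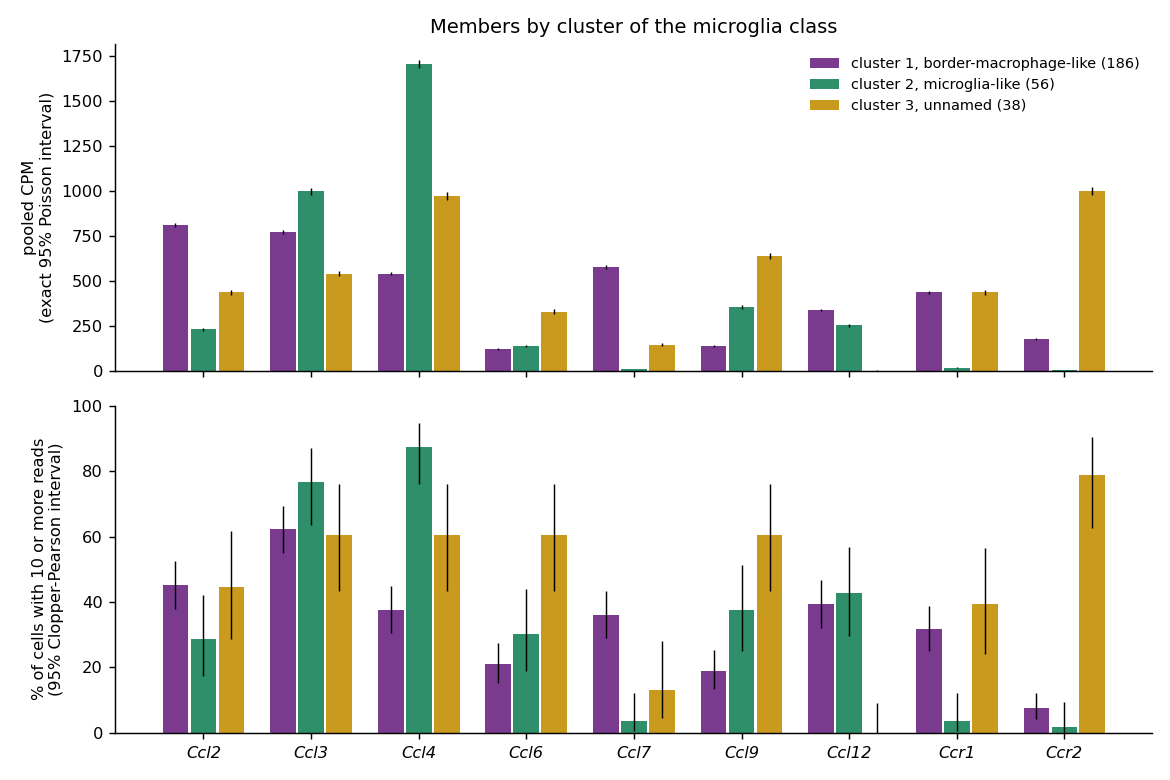
Pooled level in CPM (top) and percent of cells with 10 or more reads (bottom) of the 9 genes in the 3 clusters of the microglia class, with 95% intervals for counting error. Cluster 2 is highest for Ccl4 and lowest for Ccl7, Ccr1 and Ccr2, cluster 3 is highest for Ccl6, Ccl9 and Ccr2, and its Ccl12 is near 0.

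Cluster 3 combined high Ccr2 with near absence of Ccl12. Ccr2 stood at 1001 CPM in cluster 3, against 129 CPM in the other microglia-class cells, a log2 ratio of 2.95, and 30 of its 38 cells (78.9%, 62.7 to 90.4) carried 10 or more reads. Ccl12 stood at 3.07 CPM in cluster 3, against 314 CPM in the other cells. Of the 38 cells of cluster 3, 0 carried 10 or more reads of Ccl12 (Clopper-Pearson interval up to 9.25%). In cluster 1 it was 73 of 186 cells and in cluster 2 it was 24 of 56. Of the 9 genes only Ccr2 and Ccl12 were past 4-fold in cluster 3, 1 in each direction, where 9.04% of 14450 genes were higher and 20.1% lower. Within plate A the log2 ratios of cluster 3 over the other cells were 2.67 for Ccr2 and -6.90 for Ccl12, and within plate B they were 3.62 and -5.97. Ccl6 and Ccl9 were also higher in cluster 3, at 332 and 637 CPM, against 128 and 202 CPM in the other cells, short of 4-fold, and 23 of 38 cells carried each. Ccl7 in cluster 3 differed between plates, at 1.14 CPM over the 11 cells of plate A, a log2 ratio of -8.00 to the other cells, and 185 CPM over the 27 cells of plate B.

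Cluster 1 held most of the Ccl7. It stood at 579 CPM in cluster 1, against 71.6 CPM in the other microglia-class cells, a log2 ratio of 3.00, the only one of the 9 past 4-fold there (9.61% of 14508 genes were higher and 9.91% lower). Within plate A that log2 ratio was 6.60 and within plate B 2.25. Within plates other genes passed 4-fold too: Ccr1 was higher in cluster 1 on plate A (2.33), and Ccl9 (-2.23) and Ccr2 (-2.10) were lower in it on plate B. Ccl2 reached 814 CPM in cluster 1, against 323 CPM in the other cells. At a finer clustering resolution of 0.8, 123 cells and 70 cells, most of them from cluster 1, separated by MHC class II. The class II markers summed to 21832 CPM in the 70 cells and 2383 CPM in the 123 cells. Ccr2 stood at 552 CPM in the 70 cells and 2.62 CPM in the 123 cells. It had 10 or more reads in 19 of 70 and 0 of 123 cells (Clopper-Pearson interval up to 2.955%). Ccr1 stood at 673 CPM in the 70 cells and 296 CPM in the 123 cells, and Ccl4 at 946 CPM in the 70 cells and 389 CPM in the 123 cells. Ccl3 barely differed, at 797 CPM in the 70 cells and 784 CPM in the 123 cells.

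Over pairs of the 9 genes, co-occurrence in single cells was weak with few exceptions. Spearman's rho of log2(CPM + 1) over the 280 microglia-class cells ran from -0.22 to 0.34 over the 36 pairs, with a median of 0.02. Cells share plates, depth and cluster, so rho describes these cells and carries no test. The highest was Ccl2 with Ccl7, at 0.34 (0.32 on plate A and 0.38 on plate B). Both were carried at 10 or more reads by 53 cells: 71.6% of the 74 Ccl7 cells carried Ccl2, against 31.1% of the 206 cells without Ccl7. Within cluster 1 alone 48 of the 67 Ccl7 cells carried Ccl2, which is 71.6%, where 45.2% of all its cells did.

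Ccl3 and Ccl4 were carried together by 109 cells, the most of these pairs, with a rho of 0.32 (0.27 on plate A and 0.38 on plate B). Of the 142 Ccl4 cells 76.8% carried Ccl3, against 52.9% of the 138 cells without Ccl4. In cluster 2, where nearly all cells carry Ccl4, 77.6% of Ccl4 cells carried Ccl3, near the 76.8% of the whole cluster, but the levels of the 2 genes had a rho of 0.56 over its 56 cells. In cluster 1 rho was 0.16 over 186 cells and in cluster 3 it was 0.56 over 38 cells. Ccl6 and Ccl9 were carried together by 37 cells, with 46.8% of the 79 Ccl9 cells carrying Ccl6, against 20.9% of the 201 cells without Ccl9. Their rho of 0.20 was weak, and within cluster 1 it was 0.09. Of those 37 cells 17 were in cluster 3, where both genes were highest.

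These 3 pairs had the highest rho of the 21 ligand pairs, and each is a pair of neighbours among the CC chemokine genes of chromosome 11, whose RefSeq order runs Ccl2, Ccl7, Ccl11, Ccl12, Ccl8, Ccl1, Ccl5, Ccl16-ps, Ccl9, Ccl6, Ccl3, Ccl4. The grouping was noticed after the values were seen. It had an exception: Ccl3 and Ccl6, the only other neighbours among the 7, had a rho of -0.14, which ranks 20 of 21. The 17 pairs of ligands that are not neighbours ran from -0.21 to 0.15.

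**Figure D4:**
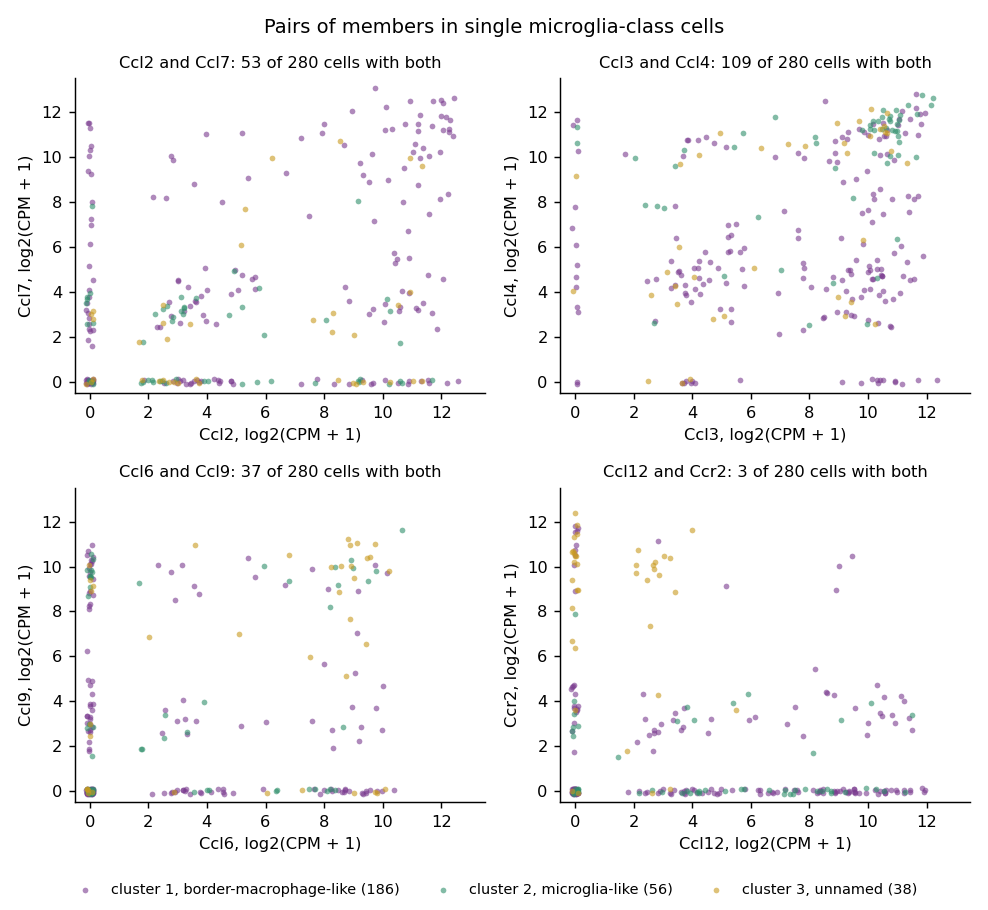
Levels of 4 pairs of genes in the 280 microglia-class cells as log2(CPM + 1), coloured by cluster and slightly jittered. Ccl2 with Ccl7 and Ccl3 with Ccl4 have many cells high in both (53 and 109 at 10 or more reads), Ccl6 with Ccl9 has 37, and Ccl12 with Ccr2 has 3.

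Ccl12 and Ccr2 had the lowest rho, -0.22 (-0.28 on plate A and -0.10 on plate B). Only 3 cells carried both, so that 6.67% of the 45 Ccr2 cells carried Ccl12, against 40.0% of the 235 cells without Ccr2. All 3 were in cluster 1, where 21.4% of the 14 Ccr2 cells and 39.2% of all cells carried Ccl12. Cluster 3 held 30 of the 45 Ccr2 cells and 0 of the 97 Ccl12 cells. Ccl7 and Ccr2 overlapped in 8 cells.

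The 2 receptors were carried by overlapping sets of cells. Of 280 microglia-class cells 56 carried Ccr1 without Ccr2, 25 carried Ccr2 without Ccr1, 20 carried both and 179 neither. Ccr1 was carried by 44.4% of the 45 Ccr2 cells, against 23.8% of the 235 cells without Ccr2, while rho was weak at 0.13 (0.05 on plate A and 0.22 on plate B). Within cluster 3 it was 12 of 30 Ccr2 cells (40.0%), near the 39.5% of all its cells. Within cluster 1 it was 8 of 14 (57.1%), where 31.7% of all its cells carried Ccr1. A Ccr1 ligand (Ccl3, Ccl6, Ccl7 or Ccl9) was carried by 71 of 76 Ccr1 cells (93.4%, 85.3 to 97.8), against 83.3% of the cells without Ccr1. A Ccr2 ligand (Ccl2, Ccl7 or Ccl12) was carried by 23 of 45 Ccr2 cells (51.1%, 35.8 to 66.3), against 65.1% of the cells without Ccr2, a share within that interval. On plate A that was 9 of 19 Ccr2 cells and on plate B 14 of 26. The direction differed between clusters. In cluster 3 it was 16 of 30 Ccr2 cells (53.3%), against 25.0% of the 8 cells without Ccr2. In cluster 1 it was 7 of 14 (50.0%), against 69.8% of the 172 cells without Ccr2.

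Few genes tracked any of the 9 across cells. Of 3358 genes read in at least 25% of microglia-class cells, 11 had a rho of 0.4 or more with Ccr2 and 0 with any other of the 9. The closest to Ccr2 were H2-Eb1, a chain of MHC class II, at 0.50, Vim, an intermediate filament gene, at 0.48, and H2-DMb1, which helps load class II with peptide, at 0.48. Within cluster 1 the values were 0.33, 0.28 and 0.39, and within the 38 cells of cluster 3 they were 0.08, 0.01 and -0.04.

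Of 45 other genes of the CC chemokine system, also chosen with earlier results known, 28 reached 1 CPM in either class. Of these, 18 stood higher in the microglia class by 4-fold or more, 1 stood lower by as much and 9 lay between, with a median log2 ratio of 3.70, against 19.9% higher, 11.7% lower and a median of 0.36 for all genes. Within plate A 20 of 28 and within plate B 20 of 27 stood higher, where 46.5% and 48.4% of all genes did. Ccl24, a ligand of Ccr3, stood at 259 CPM in the microglia class and 0.187 CPM in the endothelial class, and at 447, 2.31 and 1.37 CPM in clusters 1, 2 and 3. Ccl8 stood at 45.8 CPM in the microglia class and 0.0936 CPM in the endothelial class, with 19 cells at 10 or more reads. Ccl17, a ligand of Ccr4, stood at 14.7 CPM in the microglia class and 1.73 CPM in the endothelial class, and 7 cells, with nearly all reads in cluster 3, carried 10 or more reads.

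The atypical receptors went different ways. Ccrl2, which binds chemerin and does not signal as a chemokine receptor, stood at 662 CPM in the microglia class and 178 CPM in the endothelial class, a ratio of 3.72 (3.59 to 3.85). Ackr2, which takes up and degrades inflammatory CC chemokines, had 0 reads in the microglia class and stood at 27.3 CPM in the endothelial class, with reads in 4.50% of those cells. It was the 1 gene at least 4-fold lower over all cells, and it was not past 4-fold within plate A or plate B. Of the 45 genes 7 had 0 reads in every cell, Ccl1, Ccl20, Ccl21a, Ccr3, Ccr4, Ccr6 and Ccr8.

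Among the signalling genes downstream of the receptors 12 of 19 stood higher in the microglia class by 4-fold or more and 0 stood lower, where 19.9% of all genes were higher. Within plate A 15 of 19 were higher and 0 lower, where 46.5% of all genes were higher, and within plate B 14 were higher and 1, Grk6, lower, where 48.4% were higher. Regulators of G protein signalling, which end the signal by speeding GTP hydrolysis, stood at 1223 CPM for Rgs2 and 610 CPM for Rgs1 in the microglia class, and at 11.2 CPM for Rgs2 and 0.281 CPM for Rgs1 in the endothelial class. Rgs10 stood at 779 CPM in the microglia class, 554-fold (388 to 822) its endothelial level. Rac2, a GTPase of blood cells that moves the actin skeleton, stood at 526 CPM in the microglia class and 0.421 CPM in the endothelial class. The G protein subunits were shared: Gnai2 stood at 761 CPM in the microglia class and 1010 CPM in the endothelial class. Gnb1 stood at 291 CPM in the microglia class and 496 CPM in the endothelial class, and Gnai3 at 140 CPM in the microglia class and 235 CPM in the endothelial class.

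Genes that respond to stress and to dissociation were a mixed group. Of 27 such genes 12 stood higher in the microglia class by 4-fold or more, 0 stood lower and 15 lay between, with a median log2 ratio of 1.85, against 19.9% higher and a median of 0.36 for all genes. Within plates that excess was not seen: 12 of 27 were higher on plate A and on plate B, where 46.5% and 48.4% of all genes were higher. The list's median on plate B was 1.41, against 1.87 for all genes, and on plate A it was likewise below the 1.73 of all genes. Fos and Jun, subunits of AP-1, stood at 4343 and 3213 CPM in the microglia class and at 2010 and 2575 CPM in the endothelial class. Dusp1, a phosphatase of MAP kinases, stood at 2828 CPM in the microglia class and 1285 CPM in the endothelial class. Zfp36, which speeds decay of cytokine mRNAs, stood at 3292 CPM in the microglia class and 872 CPM in the endothelial class. Junb stood at 2487 CPM in the microglia class and 1050 CPM in the endothelial class, and Btg2 at 1828 CPM in the microglia class and 182 CPM in the endothelial class. Other genes of the list were near 0 in endothelial cells, among them Tnf, at 480 CPM in the microglia class and 0.0468 CPM in the endothelial class. Nfkbid, Il1b and Egr2 stood at 557, 286 and 219 CPM in the microglia class and each at 0.0936 CPM in the endothelial class. These 4 were named after their values were seen, and their log2 ratios ran from 7.65 to 9.00. Across microglia-class cells the median rho of the 27 genes with each of the 9 ran from -0.06 for Ccl12 to 0.12 for Ccr2, and the highest single value was 0.31, of Atf3 with Ccr2. The part of dissociation in the levels of the 9 genes was not tested, since undissociated cells were not analysed here.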

How the data were processed

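Single cells were measured by Smart-seq2 RNA sequencing, and the authors deposited raw read counts for each gene and cell. The submitters' processing notes name genome build GRCm39, featureCounts, Subread (1.4.6-p5) and SAMtools (1.16.1). Not given in the sources used here are the aligner, the annotation, the use of strand and the treatment of multiply mapped reads. By GENCODE M21, of an older build, no exon of the 9 genes overlaps another gene, and at most 1.97% of their windows of 50 bases (Ccl9) occur in another gene.

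Each count column was given its class through a deposited table of cells, in which 280 and 111 cells have the 2 class codes, as many as the labels give each cell type. The start of a column name was taken as its plate, an assumption that no label bears out. No column was left out, 0 were identical, no cell filter was applied and no doublet caller was run. Cells had 39876 to 504875 gene reads in the microglia class and 83954 to 602175 in the endothelial class.

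Reads were summed per class and scaled to all its gene reads (CPM). Class levels have exact Poisson, ratios exact conditional binomial and shares Clopper-Pearson intervals at 95%. Smart-seq2 reads are not independent molecules, and so the intervals and floors (3 reads) show counting error alone. Ratios on the log2 scale have a pseudocount of 1 CPM and understate low genes, and a gene counted as higher or lower at 4-fold. With 1 sample per class no test was run. The Leiden method clustered log CPM values at resolution 0.5 (0.3 and 0.8 as alternatives), with 15 neighbours on 20 principal components. Thinning to 74000 reads per cell dropped 40 microglia-class and 0 endothelial cells.

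Besides the 9 genes, the rule named the 6 most abundant genes of each list in the microglia class, the 3 most abundant in the endothelial class, every listed chemokine or receptor at 10 CPM or more, and up to 3 genes most like each of the 9 at a rho of at least 0.4. Genes named beyond it (Atf3, Tnf, Nfkbid, Il1b, Egr2, Grk6, Plac8, genes at 0 reads, leading genes of clusters) were chosen after their values were seen. Not every gene that meets these rules is reported here. The 9 genes and the lists were chosen with earlier results of these data known. Promoter windows were matched by symbol, and 6 of 9 genes had one. The arithmetic of the class comparison was run on simulated data for 14173 genes with 200 changed. For 97.0% of these 200 the true ratio lay in its interval, and an 8-fold change was sized at 4-fold or above in 100% of cases. Of 13973 unchanged genes 0 reached 4-fold. The simulated counts were Poisson draws per class, with no spread between cells, plates or animals, so they cannot show how such spread affects the ratios. The software was Python 3.11.15 with numpy 2.4.6, scipy 1.17.1, pandas 2.3.3, scanpy 1.11.5, leidenalg 0.10.2, biopython 1.88 and matplotlib 3.10.9.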

Additional observations from a re-analysis of the deposited data

How the results depend on the processing

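All 72 ratios of the 9 genes under 8 alternatives (pseudocount, scaling, equal weight per cell, thinning and plates) stayed at least 4-fold, with log2 ratios from 6.69 to 11.50. The median log2 ratio of the 9, 8.10, was 9.79 with a pseudocount of 0.1 CPM, 7.53 over plates A and B, 8.41 on plate A and 7.37 on plate B. With genes at 0 reads set to the floor the last 2 were 7.78 and 6.77. The plates moved the background more: 2989 genes were higher and 1761 lower over all cells, 6584 and 1548 on plate A, and 6609 and 1573 on plate B, where the median of all genes was 1.73 and 1.87. With a fold of 2, 5572 genes were higher. With a pseudocount of 0.1 CPM the split was 4371 higher and 2225 lower, and with median-of-ratios scaling the median of all genes was 0.23.

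The median over the 9 genes of the percent of microglia-class cells with a read, 63.2%, was 28.2% at 10 or more reads and 44.2% in thinned cells. Cells with both genes of a pair, at 1 or more and at 50 or more reads, were 86.1% and 30.4% for Ccl3 and Ccl4 (38.9% at 10), 50.4% and 12.9% for Ccl2 and Ccl7 (18.9%), and 26.1% and 7.50% for Ccl6 and Ccl9 (13.2%). These 3 pairs were taken after the values were seen. Genes at a rho of 0.4 or more numbered 11 over all cells and 21 on plate B. Of the values of single genes 53 moved beyond counting error and 40 did not, and none reversed. No paired analysis was possible because replicate numbers are in accession order and no test was made. Depth limits genes under about 10 reads per cell, endothelial values on plates A and B rest on 7 and 10 cells, and animals cannot be told apart.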
